A study of Mus musculus with 4 samples.

Results

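The 37 protein-coding mouse genes of the aminoacyl-tRNA synthetases, out of 21887 protein-coding genes in all, were examined for open chromatin in haematopoietic stem cells (HSCs). They were taken by name: the letter of the amino acid followed by ars, ars1 or ars2. This gave 20 genes of cytosolic enzymes, among them Farsa and Farsb for the 2 subunits of phenylalanyl-tRNA synthetase, and 17 genes of mitochondrial enzymes. Gars and Kars, whose products serve both compartments, were counted as cytosolic. The rule uses names and no measured value, but the members were chosen with earlier results of these data known.

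The study measured ATAC-seq, in which the Tn5 transposase cuts and tags accessible DNA, in bone marrow HSCs from male C57BL/6 mice, wild type and 8 weeks old. The cells were lineage-depleted, sorted as LSK and CD34-, Flt3-, CD48- and Slam1+, and parted by the surface receptor CD93 into CD93-positive and CD93-negative HSCs, with 2 libraries each and no treatment. Every library was given by its list of peak summits, the 1-bp positions of highest signal, each with a score that is the −log10 of a p or q value against the library's own background. Whether replicate libraries stem from different animals is not in the labels, and their spread may be technical.

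Aminoacyl-tRNA synthetases join each amino acid to its tRNA and so supply the ribosome with charged tRNA. Cytosolic and mitochondrial protein synthesis use separate enzymes for most amino acids, and all of these enzymes, the mitochondrial ones included, are made from nuclear genes. Several cytosolic synthetases sit together in the multi-synthetase complex. When tRNA stays uncharged, the kinase GCN2 raises translation of the transcription factor ATF4, which binds C/EBP-ATF response elements (CAREs) in many cytosolic synthetase genes. HSCs are known for a low rate of protein synthesis.

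The start regions of some cytosolic genes carry the letters of such an element. RefSeq promoter entries on GRCm38.p6, the assembly of mm10, cover 250 bases before and 50 after a transcript start and matched 27 of the 37 genes. Cars, Hars, Lars, Nars, Rars, Vars, Wars, Hars2 and Pars2 were among those not matched. The motif TGATGNAA, searched on both strands, was found in 5 of 13 cytosolic entries (38.5%), 0 of 14 mitochondrial entries and 723 of 17492 entries of protein-coding genes (4.13%). It was found in 2.51% of the 5808 matched genes that had a summit near a gene end in CD93-negative replicate 1. The 5 genes are those for alanine, glycine, isoleucine, threonine and tyrosine, shown from 5′ to 3′ on the gene's strand with the match in capitals. A match is a description and not a site of binding.
Aars, chr8:111033717-111033861, plus strand: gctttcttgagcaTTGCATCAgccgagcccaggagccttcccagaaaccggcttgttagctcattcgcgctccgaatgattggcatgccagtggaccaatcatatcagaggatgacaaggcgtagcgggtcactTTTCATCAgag
Gars, chr6:55037931-55038020, plus strand: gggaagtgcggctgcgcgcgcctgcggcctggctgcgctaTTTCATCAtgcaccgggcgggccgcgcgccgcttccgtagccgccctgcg
Iars, chr13:49682060-49682149, plus strand: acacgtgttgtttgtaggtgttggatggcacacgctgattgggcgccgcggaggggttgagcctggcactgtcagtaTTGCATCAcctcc
Tars, chr15:11399639-11399728, minus strand: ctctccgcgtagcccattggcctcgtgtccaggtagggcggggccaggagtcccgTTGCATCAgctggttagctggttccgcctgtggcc
Yars, chr4:129189833-129189922, plus strand: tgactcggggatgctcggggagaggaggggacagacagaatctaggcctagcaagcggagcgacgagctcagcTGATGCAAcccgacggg

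Each of these windows ends 20 bases after the start. Counted with the first transcribed base as position 1, the matches began at -112 and 10 in Aars, -30 in Gars, 8 in Iars, -15 in Tars and 4 in Yars. All 5 genes had a summit within 250 bp of the tabulated start in CD93-negative replicate 1. In CD93-negative replicate 2 this held for Aars, with a summit 31 bp upstream, and in the CD93-positive libraries for none of the 5. Start summits were not particular to these genes. Within 1000 bp of a start, 12 of the 13 cytosolic entries had a summit in CD93-negative replicate 1 (92.3%), against 34.9% of all entries. In replicate 2 it was 4 of 13 (30.8%), against 14.1%.

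A further 3 motifs were searched in the same way, and their shares are set against all 17492 entries and against the 5808 listed in CD93-negative replicate 1. GCGCATGCG, the core of sites of the factor NRF1, which is known for nuclear genes of mitochondrial proteins, was found in 0 of 13 cytosolic and 2 of 14 mitochondrial entries, Vars2 and Wars2, or 7.41% of the 27, against 2.61% and 5.42%. CACGTG, the E-box, was found in 4 cytosolic entries (Aars, Farsb, Iars and Tars) and 1 mitochondrial entry (Ears2), or 18.5% of the 27, against 8.91% and 12.8%. That is as many synthetase genes as had the CARE motif. CCGGAAGT, an ETS-type motif, was found in 2 cytosolic entries (Farsa and Mars1) and 1 mitochondrial entry (Rars2), or 11.1% of the 27, against 5.69% and 11%. All were searched on both strands in 300 bases, and in these genes none of their matches overlapped a CARE-type match. The NRF1-type matches are in capitals here, because Vars2 was listed in both CD93-negative libraries and the Wars2 summit of replicate 2 lay inside this window.
Vars2, chr17:35667573-35667662, minus strand: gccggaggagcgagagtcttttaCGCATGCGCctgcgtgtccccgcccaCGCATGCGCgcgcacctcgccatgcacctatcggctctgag
Wars2, chr3:99141000-99141109, plus strand: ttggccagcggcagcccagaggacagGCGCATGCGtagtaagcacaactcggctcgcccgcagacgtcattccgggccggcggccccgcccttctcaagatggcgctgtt

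The lists differed in length, with 21 and 711 summits for the CD93-positive replicates, and 7989 and 2755 for the CD93-negative ones, each in the order of replicates 1 and 2. Read depth is unknown. A gene was counted as listed when a summit lay within 1000 bp of either of its ends, and its highest-scoring such summit was used. By that measure the CD93-positive lists covered 0.0183% and 3.22% of all genes, and the CD93-negative lists 32.2% and 12.9%, in the same order. Of 10 HSC marker genes, Tal1 and Lyl1 were listed in CD93-negative replicate 1. Hlf, Mecom, Procr, Slamf1, Kit, Ly6a, Gata2 and Fgd5 were listed in no library. Of 16 markers of B, T, myeloid, erythroid and endothelial cells, Cd3d was listed, in CD93-negative replicate 1 alone.

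A higher share of synthetase genes was listed in each CD93-negative library than in either CD93-positive library. None of the 37 was listed in CD93-positive replicate 1, where 0.0183% of all genes were, and 3 were in replicate 2 (8.11%, against 3.22% of all genes). CD93-negative replicate 1 listed 31 (83.8%, against 32.2%) and replicate 2 listed 10 (27.0%, against 12.9%). The mean share was 4.05% ± 5.73 (SD, n = 2) in CD93-positive and 55.4% ± 40.1 (SD, n = 2) in CD93-negative HSCs, a difference of -51.4 percentage points. The groups did not overlap, but an exact permutation test, two-sided, gave p = 0.333. No smaller p is possible with 2 libraries a group.

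The share of synthetase genes followed the length of the list in the same order as that of all genes, and the part of read depth in the difference was not tested. With 711 summits in each of the 3 longer lists, and the 21 of CD93-positive replicate 1 left as they are, the difference between group means was 0 points. Among the 3 lists of equal length, CD93-positive replicate 2 listed 3 of 37 synthetase genes (8.11%, against 3.22% of all genes). CD93-negative replicate 1 listed 1 (2.70%, against 3.28% of all genes), and replicate 2 listed 2 (5.41%, against 3.38% of all genes). Those 3 rest on the whole list of CD93-positive replicate 2, while the other lists were reduced to their highest scores. With 1 CD93-positive list of that length, the fractions could not be tested at equal length.

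**Figure D1:**
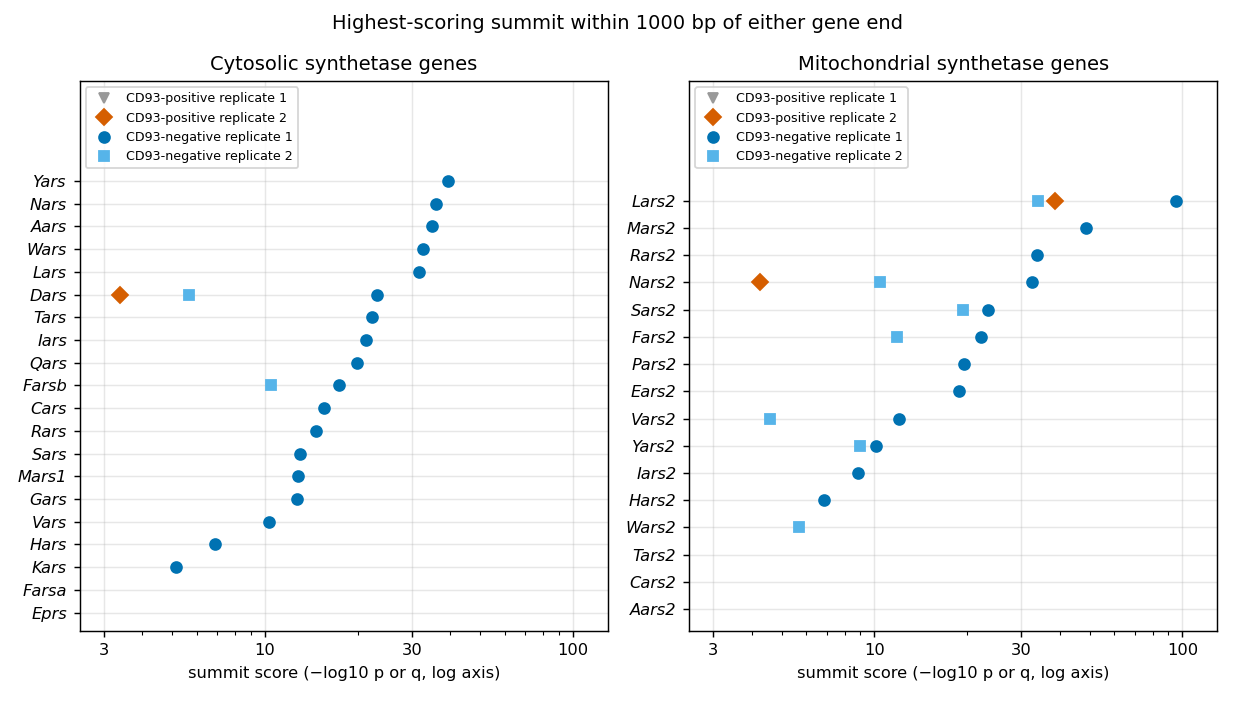
Score of the highest-scoring summit within 1000 bp of either gene end (x axis, −log10 of p or q, log scale) for the cytosolic genes (left) and 16 of the 17 mitochondrial genes (right), with 1 symbol per library. Most genes have a symbol for CD93-negative replicate 1, and Lars2 has the highest score of the family in each of the 3 libraries that list it. Scores are not scaled between libraries.

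Among cytosolic genes, Dars, for aspartyl-tRNA synthetase of the multi-synthetase complex, was the single gene listed in a CD93-positive library. Its score was 3.37 in CD93-positive replicate 2, 23.10 in CD93-negative replicate 1 and 5.68 in CD93-negative replicate 2. These summits ranked 701 of 711, 3560 of 7989 and 2392 of 2755, so in both shorter lists the site stood near the bottom. They lay 253, 24 and 489 bp downstream of the start (chromosome 1, gene at 128363707 to 128417416, minus strand), inside the gene, and the summits of the CD93-negative libraries were 465 bp apart.

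Farsb, for the beta subunit of phenylalanyl-tRNA synthetase, was the other cytosolic gene listed in both CD93-negative libraries. It scored 17.42 in replicate 1, 7 bp downstream of its start, and 10.42 in replicate 2, 200 bp upstream. Farsa, for the alpha subunit, was not listed in any library, and the summit nearest to its gene ends was 9941 to 9957 bp away in the 3 longer lists. The 2 subunits of this enzyme were thus listed unequally.

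The remaining 16 listed cytosolic genes were in CD93-negative replicate 1 alone. The highest was Yars, for tyrosyl-tRNA synthetase, with a score of 39.42, which ranked 1643 of 7989. Nars, for asparaginyl-tRNA synthetase, scored 35.96 (rank 1949). Aars, for alanyl-tRNA synthetase, scored 34.75 (rank 2062). These 3 were absent from CD93-negative replicate 2 by the gene-end measure, although they had the highest cytosolic gene-end scores in replicate 1. The other 13 were Lars, Iars, Mars1, Qars, Rars and Kars of the multi-synthetase complex, and Cars, Gars, Hars, Sars, Tars, Vars and Wars. Of these Kars, for lysyl-tRNA synthetase, had the lowest score of the family in this library (5.15). The median over the 18 cytosolic genes listed there was 18.64, against 23.89 over all 7042 listed genes.

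Among mitochondrial genes, Lars2 and Nars2 were listed in the CD93-positive group, in replicate 2. Nars2, for mitochondrial asparaginyl-tRNA synthetase, scored 4.25 there, 32.59 in CD93-negative replicate 1 and 10.42 in CD93-negative replicate 2. Its summits were 13 to 30 bp apart across the 3 libraries, in contrast to those of Dars. They lay 652 to 682 bp inside the outermost end of the gene, but 6, 23 and 36 bp upstream of the start in the promoter entry.

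Further mitochondrial genes were listed in both CD93-negative libraries, at unlike ranks in replicate 2. Sars2, for mitochondrial seryl-tRNA synthetase, scored 23.31 in replicate 1 and 19.41 in replicate 2, where it ranked 195 of 2755. Fars2, for the phenylalanyl enzyme, scored 22.23 and 11.88. Neither gene was in a CD93-positive list. Vars2 and Yars2, for the valyl and tyrosyl enzymes, were likewise listed in replicates 1 and 2 of the CD93-negative group. In replicate 2 they scored 4.58 and 8.99 and ranked 2595 and 1558 of 2755, so Vars2 stood near the bottom.

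Mars2, for mitochondrial methionyl-tRNA synthetase, had the highest score of any synthetase start in CD93-negative replicate 1, 48.69 (rank 1026 of 7989), 3 bp upstream of its start, and was in no other list. Ears2, Hars2, Iars2, Pars2 and Rars2 were likewise in that library alone, with scores of 6.86 to 33.84. Wars2, for the tryptophanyl enzyme, was listed in CD93-negative replicate 2 alone (5.68). Its summit there was just inside the 1000-bp limit at 995 bp from the gene end, while that of CD93-negative replicate 1 was outside, at 1230 bp (score 14.59). Aars2, Cars2 and Tars2, for the alanyl, cysteinyl and threonyl enzymes, were not listed in any library.

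The order of the cytosolic and mitochondrial shares differed between the CD93-negative libraries. In replicate 1, 18 of 20 cytosolic genes (90%, exact Clopper-Pearson 95% interval 68.3 to 98.8) and 13 of 17 mitochondrial genes (76.5%, 50.1 to 93.2) were listed. The share of all genes there was 32.2%. In replicate 2 these were 2 of 20 (10%, 1.23 to 31.7) and 8 of 17 (47.1%, 23.0 to 72.2). The share of all genes in replicate 2, 12.9%, was within the cytosolic interval and below the mitochondrial one. In CD93-positive replicate 2 the counts were 1 of 20 (5%) and 2 of 17 (11.8%), against 3.22% of all genes. The intervals treat genes as independent and cover counting error only, and they overlapped between the classes in every library.

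The cytosolic share minus the mitochondrial share was 0 and -6.76 points for the CD93-positive group, and 13.5 and -37.1 points for the CD93-negative group, replicate 1 first. The means of -3.38 ± 4.78 and -11.8 ± 35.8 (SD, n = 2 each) differed by 8.38 points, with overlapping groups (exact permutation test, two-sided, p = 1). The 2 CD93-negative libraries had opposite signs, so the difference between classes did not hold across libraries of the same group.

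**Figure D2:**
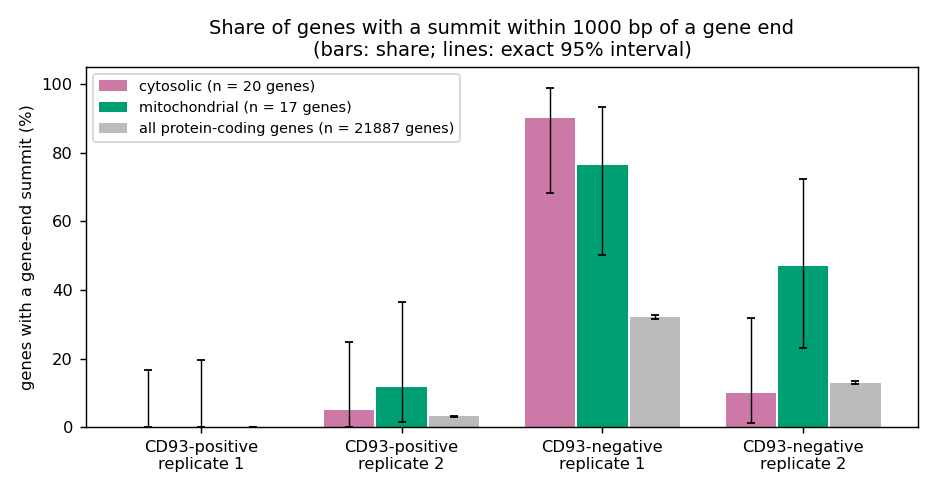
Share of cytosolic synthetase genes, mitochondrial synthetase genes and all protein-coding genes with a summit within 1000 bp of a gene end (y axis, percent) in each of the 4 libraries; lines are exact 95% intervals. The cytosolic bar is above the mitochondrial bar in CD93-negative replicate 1 (90% and 76.5%) and below it in replicate 2 (10% and 47.1%).

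At equal length the 2 CD93-negative lists held mostly other synthetase genes. The 2755 highest-scoring summits of replicate 1, with scores of at least 28.72, listed 9 of the 37: Aars, Lars, Nars, Wars and Yars of the cytosolic class and Lars2, Mars2, Nars2 and Rars2 of the mitochondrial class. Replicate 2 listed 10. Lars2 and Nars2 were in both sets, which is 22.2% of the first and 20% of the second. Over all genes, where each set held 12.9% of the 21887, the sets had 1823 genes in common, or 64.4% of each.

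Below that score, 7 of 22 synthetase genes of replicate 1 were also in replicate 2 (31.8%), against 22.9% of 4210 genes in all. The split by class was 2 of 13 cytosolic and 5 of 9 mitochondrial genes. None of the 5 strong cytosolic genes of replicate 1 was listed in replicate 2 by its gene ends (Aars was, at its start), while Vars2 and Yars2, with scores of 12.06 and 10.13 in replicate 1, were. Eprs is not in these counts, because its summits lay beyond 1000 bp of a gene end. At its start it scored 39.10 in replicate 1 and 10.00 in replicate 2.

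**Figure D3:**
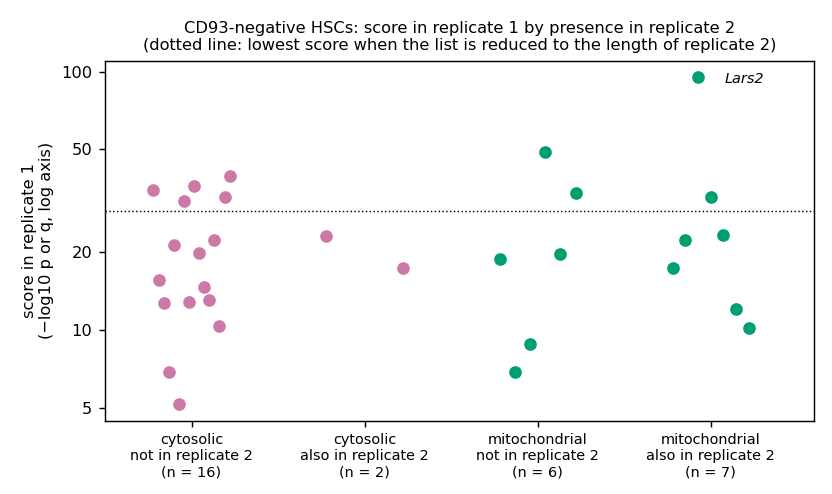
Score in CD93-negative replicate 1 (y axis, −log10 of p or q, log scale) of the 31 synthetase genes listed there, parted by class and by whether CD93-negative replicate 2 also listed the gene. The dotted line is the lowest score of the 2755 highest-scoring summits. Above it, none of the 5 cytosolic genes and 2 of the 4 mitochondrial genes were in replicate 2 by their gene ends.

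The gene models bear on these counts. For Eprs, for the glutamyl-prolyl-tRNA synthetase of the multi-synthetase complex, the outermost end of the gene lies upstream of the start in the promoter entry, and its summits at that start were missed by the gene-end measure. They scored 39.10 in CD93-negative replicate 1 and 10.00 in replicate 2, 56 and 44 bp upstream of the start. From the gene end they were 1571 and 1583 bp away, beyond the 1000-bp limit. For Aars the highest-scoring gene-end summit in CD93-negative replicate 1 lay 744 bp beyond its 3′ end and 26 bp from an end of the neighbour Exosc6, an exosome subunit gene. At the Aars start of the promoter entry there was a summit of score 34.51 in replicate 1, 3 bp upstream, and one of 7.70 in replicate 2, 31 bp upstream.

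The Eprs and Nars2 windows show how near the libraries' summits lay to each other. Capitals mark the stretch from the first to the last summit, over both CD93-negative libraries in Eprs and over the 3 longer lists in Nars2, and each window ends 20 bases after the start.
Eprs, chr1:185362954-185363063, plus strand: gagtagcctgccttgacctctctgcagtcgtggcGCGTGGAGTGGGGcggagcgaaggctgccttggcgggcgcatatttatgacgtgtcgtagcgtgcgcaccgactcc
Nars2, chr7:96951437-96951546, plus strand: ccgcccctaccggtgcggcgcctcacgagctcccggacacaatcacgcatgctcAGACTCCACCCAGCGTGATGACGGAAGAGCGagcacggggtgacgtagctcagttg
The capitals span 13 bases in Eprs and 31 bases in Nars2.

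With summits within 1000 bp of a gene end or of a tabulated start, 19 of 20 cytosolic and 15 of 17 mitochondrial genes were listed in CD93-negative replicate 1, where 34.7% of all genes were. In replicate 2 these were 4 of 20 (20%) and 8 of 17 (47.1%), against 14% of all genes. Farsa, Cars2 and Tars2 remained without a summit in replicate 1. Wars2 and Aars2 were added there by summits 247 and 219 bp downstream of a start. With starts alone, in the 27 genes that have an entry, the classes were closer in replicate 2, at 4 of 13 cytosolic (30.8%) and 6 of 14 mitochondrial genes (42.9%), against 14.1% of all genes with an entry. In replicate 1 they were 12 of 13 (92.3%) and 11 of 14 (78.6%), against 34.9%. Under both measures the cytosolic share was the higher in CD93-negative replicate 1 and the lower in replicate 2.

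Most synthetase summits of known distance lay at starts. In CD93-negative replicate 1 the distance to the nearest tabulated start was known for 21 listed genes, with a median of 32 bp, and 19 lay within 250 bp, all but Aars and Lars2. In CD93-negative replicate 2, 7 of 9 lay within 250 bp, with a median of 119 bp, and the others were Dars and Lars2. In CD93-positive replicate 2 the distances were 6 bp for Nars2, 253 bp for Dars and 95098 bp for Lars2. The lists as a whole were alike in this. Of summits within 1000 bp of an end of a gene of known strand, and of no gene without one, nearly all were at a start. These were 5593 of 5644 in CD93-negative replicate 1, 2152 of 2163 in replicate 2 and 549 of 550 in CD93-positive replicate 2.

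**Figure D4:**
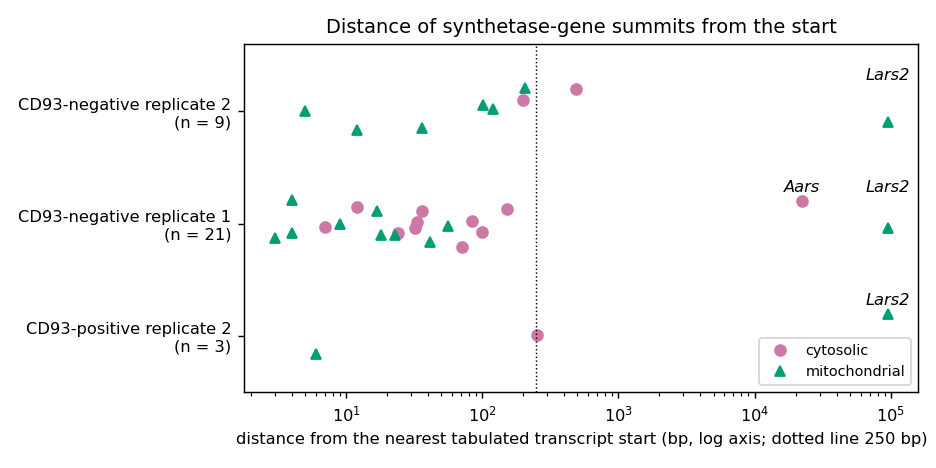
Distance of each listed synthetase gene's highest-scoring summit from the nearest tabulated transcript start (x axis, bp, log scale) in the 3 libraries that listed any, for genes with a promoter entry. Lars2 lies 95063 to 95099 bp from its start in all 3 libraries, and Aars, whose summit was at a neighbouring gene, is the single other point beyond 1000 bp.

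Many synthetase summits also lay at another gene. In CD93-negative replicate 1, 14 of 31 (45.2%) were within 1000 bp of an end of another protein-coding gene, against 32.3% of all 7042 listed genes. These were 6 of 18 cytosolic and 8 of 13 mitochondrial genes. The histidyl pair Hars and Hars2 had a single summit (score 6.86), 83 bp from an end of Hars and 86 bp from an end of Hars2, so 1 site is counted for each of them. Sars2 shared its site with Mrps12, a mitochondrial ribosomal protein gene, Rars2 with Orc3 of the origin recognition complex, Vars2 with Gtf2h4 of TFIIH, and Kars with Terf2ip, a telomere protein gene. Such sites cannot be given to a single gene.

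The Lars2 site stood apart from all other synthetase sites. Lars2 encodes mitochondrial leucyl-tRNA synthetase (gene ID 102436, chromosome 9, 123366927 to 123462675, plus strand, 95749 bp). It was not listed in CD93-positive replicate 1. It scored 38.64 in CD93-positive replicate 2, 95.03 in CD93-negative replicate 1 and 34.00 in CD93-negative replicate 2, the highest of the family in each. The summits were at 123462025, 123461990 and 123462026, all inside the gene, 650, 685 and 649 bp before its 3′ end. They were 1 to 36 bp apart, and no further summit of any library lay in the gene or within 10000 bp of it, so that the start of Lars2 had none.

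In rank the site was 22 of 711 in CD93-positive replicate 2, 78 of 7989 in CD93-negative replicate 1 and 14 of 2755 in CD93-negative replicate 2, which is 3.09%, 0.976% and 0.508% of the lists. Among genes by their gene-end score, Lars2 was at place 1 of 704 and 1 of 2829 in the first and last of these, and 54 of 7042 in CD93-negative replicate 1. Its score was 4.68, 4.61 and 3.46 times the median of the respective list. With Dars and Nars2, the other genes in all 3 lists, the place in CD93-positive replicate 2 was 701 and 673 of 711.

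Summits at a 3′ end without a start nearby were rare. Among summits within 1000 bp of a gene of known strand, and of no gene without one, 1 of 550 in CD93-positive replicate 2 was at a 3′ end only, which was the Lars2 site. In CD93-negative replicates 1 and 2 there were 51 of 5644 (0.904%) and 11 of 2163 (0.509%). The Lars2 site had the highest score of all of them, with the next at 49.95 in replicate 1 and 15.52 in replicate 2, and medians of 12.11 and 7.89. These values separate the site from the start sites of the family by position and by score. Whether reads from elsewhere in the genome were placed there was not tested, because reads, mappability and the sequence of the site were not used here. Without Lars2, 0, 5.56%, 83.3% and 25.0% of the other 36 genes were listed in the 4 libraries in the order above.

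Genes that handle charged or uncharged tRNA besides the 37 members were counted in the same way. Of 12 genes of scaffold, amidotransferase, editing and related proteins, 10 were listed in CD93-negative replicate 1, 4 in replicate 2 and 0 in either CD93-positive library. The shares of all genes were 32.2% and 12.9% in CD93-negative replicates 1 and 2, and 0.0183% and 3.22% in the CD93-positive ones. The 4 were Aimp1 (18.62 and 7.05 in CD93-negative replicates 1 and 2), Aimp2 (17.92 and 10.70), Gatb (44.65 and 9.97) and Tarsl2 (40.99 and 4.59). Aimp1 and Aimp2 are for scaffold proteins of the multi-synthetase complex. Gatb is for a subunit of the mitochondrial amidotransferase that makes Gln-tRNA. Tarsl2 is a threonyl-tRNA synthetase gene that the naming rule left out of the 37. Eef1e1, the remaining scaffold gene, scored 38.15 in replicate 1 and was absent from replicate 2. Dtd2 and Aarsd1, both for editing enzymes, were in no list.

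Of 9 genes of the response to uncharged tRNA, 6 were listed in CD93-negative replicate 1, 3 in replicate 2 (against 32.2% and 12.9% of all genes) and 0 in the CD93-positive libraries (against 0.0183% and 3.22%). Eif2ak4, the gene of GCN2, scored 54.19 and 11.66. Atf4 scored 61.35 and 10.86. Ddit3, a stress-induced transcription factor gene whose 3′ end overlaps that of Mars1, scored 81.14 and 9.55. These 3 had higher gene-end scores in replicate 1 than every synthetase gene except Lars2 (95.03). Gcn1, Impact and Trib3 were in no list.

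Of 9 elongation factor genes, 6 were listed in CD93-negative replicate 1, 3 in replicate 2 (against 32.2% and 12.9% of all genes) and 1 in CD93-positive replicate 2 (against 3.22%). The last was Eef1g, a subunit of the exchange factor of eEF1A, which scored 6.94 there and 70.29 and 13.37 in the CD93-negative libraries. Eef1b2 (18.05 and 10.42) and Eef1d (41.08 and 17.70), of the same exchange complex, were in both CD93-negative libraries. Tufm, Tsfm and Gfm1, which serve mitochondrial elongation, were in no list by their gene ends. Gfm2, a further mitochondrial gene of this set, scored 19.58 in CD93-negative replicate 1 and was in no other list.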

How the data were processed

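Each library's deposited list holds 1-bp summits with a score, read as MACS2 output, that is −log10 of p or q. Alignment with Bowtie2, calling with MACS2 and the build mm10 are given per the submitters' processing notes. Versions, filters, any Tn5 shift and thresholds: not given in the sources used here. Scores were used to rank within a list, and only presence was compared between libraries.

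Positions are 1-based. Gene ends were taken from RefSeq (GRCm38.p6), and strands, starts and sequences from RefSeq promoter entries. All 37 symbols matched, and 528 of 528 overlaps of promoter entries on opposite strands were reverse complements. Named genes were those in 3 libraries or a CD93-positive library, the 5 of highest score in each CD93-negative library, and Lars2, with further pathway genes in a CD93-positive or both CD93-negative libraries; a few others were named after their values were seen. The values of 1 mitochondrial gene are not reported here, and it stays in the counts. The members, lists and tests were chosen with earlier results of these data known. Groups and replicate numbers came from the sample titles. The summit names within 3 of the 4 lists carry another replicate number, so a replicate number here only names a library. Exact permutation tests used scipy 1.17.1 with numpy 2.4.6 and pandas 2.3.3 in Python 3.11.15, plots matplotlib 3.10.9. The gene-end assignment was tested on simulated data. No list of artefact-prone regions was used.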

Additional observations from a re-analysis of the deposited data

How the results depend on the processing

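In the gene-body setting, each gene was taken with flanks of 10000 bp on either side. The lower share of synthetase genes listed in CD93-positive HSCs (-51.4 points) kept its direction with windows of 500 and 2500 bp, tabulated starts, gene bodies with flanks, score minimums of 5 and 10 and without Lars2. It also kept it in 2 settings chosen after seeing the data: CD93-negative replicate 1 reduced to 2755 summits (-21.6 points) and gene ends or starts. It was 0 with the 3 longer lists at 711 summits, CD93-positive replicate 1 keeping its 21. Leaving out each library gave -79.7 to -23.0 points, the latter without CD93-negative replicate 1.

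The cytosolic minus mitochondrial difference between groups (8.38 points) turned to -0.441 with a 500-bp window, -0.549 with tabulated starts and -0.294 with gene bodies and their 10000-bp flanks. Leaving out each library gave -16.9 (without CD93-negative replicate 2) to 33.7 (without CD93-negative replicate 1). It therefore has no stable sign.

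With a replicate block the differences were the same, -51.4 and 8.38, with exact permutation p = 0.5 and 1, and 0.5 is the smallest such a block allows. The numbers are not known to pair libraries: over 21887 genes the deviations of same-numbered libraries correlated with r = 0.0277.

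The 3 genes of CD93-positive replicate 2 became 1 with the 500-bp window or either score minimum and 5 with gene bodies and their 10000-bp flanks. The 31 of CD93-negative replicate 1 became 9 at 2755 summits (24.3%, against 12.9% of all genes) and 1 at 711 summits (2.7%, against 3.28%). The 10 of CD93-negative replicate 2 became 17 with gene bodies and flanks, and 6 at a score of at least 10. At 711 summits they became 2 (5.41%, against 3.38% of all genes). With the 500-bp window, the score minimums and the gene bodies with flanks, the share of all genes was not counted.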
